A study of Homo sapiens with 6 samples.

Results

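VIM, FN1, ZEB1, ZEB2, SNAI1, SNAI2, TWIST1, TWIST2, AXL and SPARC are 10 genes of the mesenchymal state, and their mRNA was followed in bladder cancer cells after transfection with FOXA1. Every probeset of the HG-U133 Plus 2.0 array whose annotation gives 1 gene symbol, and that symbol among the 10, was taken. This gave 27 of the 54613 probesets tested, 1 to 7 for each gene. The series holds 6 arrays of EJ cells (EJ/T24), an established human line of invasive bladder cancer with low FOXA1. Of these, 3 were from cells transfected with a FOXA1 construct and 3 from cells transfected with empty pUC19 (control), although the methods describe a pcDNA3 vector. If the vectors of the groups differed, vector and FOXA1 cannot be told apart here. In both groups the cells were grown in DMEM with 10% FCS, and 24 μg of DNA was given with Lipofectamine to a 90 mm dish at 70% confluence. The data are therefore of 1 cell line, and the share of cells that took up DNA was not analysed here. The titles number the replicates 1 to 3 and the methods speak of triplicate experiments, but no source says whether those within a group were separate cultures, so p-values reflect array to array spread that may be technical in origin. In bulk RNA, fewer cells with a transcript and less of it in each cell cannot be told apart.

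In the epithelial to mesenchymal transition, cells of an epithelium lose their junctions, spread and become motile. A small set of DNA binding repressors drives it. The zinc finger factors ZEB1, ZEB2, SNAI1 and SNAI2 and the helix-loop-helix factors TWIST1 and TWIST2 bind E-box sequences and silence E-cadherin and other epithelial genes. VIM, FN1 and SPARC are products of the mesenchymal state, namely an intermediate filament, a matrix glycoprotein and a secreted matrix protein. AXL is a receptor tyrosine kinase that is often high in such cells. FOXA1 is a forkhead factor that opens chromatin, and in urothelium it marks the luminal, differentiated state.

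RefSeq windows of 300 bases around start sites (250 before and 50 after, GRCh38.p14) were found for 7 of the 10 genes, 14 windows in all. They were searched on both strands for CACCTG, an E-box that the ZEB and SNAI factors bind, and for TGTTTAC, a forkhead word. The E-box word (read on either strand) was in 3 of the 14 windows, those of ZEB1 and AXL, and in 20.6% of all 35116 windows of this length. The forkhead word (either strand) was in 2, again of ZEB1 and AXL, and in 3.42% of all windows. ZEB1 has 7 of the 14 windows, so these counts are not over independent genes. The words share no bases with each other in these windows, and a match is a description of letters only. The 250 bases before the first start site of ZEB1 (chr10:31318167-31318416, plus strand) and of AXL (chr19:41218973-41219222, plus strand) are shown with the E-box in capitals, since these were the members with the word and both had bright signals. The forkhead words are shown with their nearest bases, at chr10:31321661-31321690 for a later ZEB1 start site and at chr19:41226756-41226785 for a later AXL start site.
ZEB1 before the first start site: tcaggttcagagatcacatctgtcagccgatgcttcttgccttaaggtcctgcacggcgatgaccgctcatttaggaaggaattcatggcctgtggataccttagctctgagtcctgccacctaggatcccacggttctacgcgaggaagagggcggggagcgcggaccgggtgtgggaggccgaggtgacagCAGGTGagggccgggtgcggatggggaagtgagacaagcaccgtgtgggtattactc
AXL before the first start site: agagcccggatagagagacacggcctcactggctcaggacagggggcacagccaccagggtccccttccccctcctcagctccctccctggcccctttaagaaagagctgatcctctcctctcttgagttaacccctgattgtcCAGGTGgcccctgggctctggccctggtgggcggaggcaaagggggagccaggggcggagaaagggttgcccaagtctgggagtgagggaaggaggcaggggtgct
ZEB1 forkhead words: cagctgctGTAAACATGTTTACctgaacag
AXL forkhead word: gcacacgcGTAAACAacacgcagaactgca

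MAS5 signals, which are linear and had the same trimmed mean of 100.01 in every array, had a median of 14.4 to 17.5 in FOXA1 transfected and 12.3 to 16.1 in control arrays. The 20th percentile of all signals was 3.5, under which signals have no order. FOXA1 itself had signals of 38.9, 34.8 and 31.9 in the transfected arrays and 21.8, 24.4 and 21 in the control arrays at its brighter probeset. The groups did not overlap. The log2 difference was 0.65 (SE 0.23, adjusted p = 0.307 from limma, Benjamini-Hochberg over all probesets), and -0.54 (SE 0.64) at the dimmer probeset. All differences are FOXA1 transfected minus control as the samples are labelled, a direction opposite in sign to the table of changed genes that accompanied the study. The ratio of 3' to 5' ACTB probesets, a measure of RNA integrity and labelling, averaged 2.37 ± 0.228 after FOXA1 transfection and 1.73 ± 0.188 in controls (SD, n = 3 each), without overlap. The same ratio for GAPDH was 0.920 ± 0.0217 and 0.899 ± 0.00926, with overlap. The part of RNA quality in the differences given here was not tested.

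None of the 27 probesets passed limma at an adjusted p under 0.05, against 0.0586% of all probesets (32 of 54613, in either direction). The lowest adjusted p among them was 0.209. At an unadjusted p under 0.05 there were 5 of the 27, against 11.3% of all probesets. The 3 FOXA1 transfected arrays exceeded every control array at 2 of the 27, against 10.5% of all probesets, and lay below all of them at 5, against 5.86%. These 7 were 4 probesets of FN1, 2 of ZEB2 and 1 of ZEB1, so most share a gene. At ZEB2 233033_at, 1 of the 5 below, 5 of the 6 signals lay under 3.5, so its order is not readable. The brightest of 20 markers of other cells, read below, was PECAM1 with a mean signal of 43.03 over the 6 arrays. Of the 27 probesets, 20 had a mean at or under it, among them all of FN1, SNAI1, SNAI2, TWIST1, TWIST2 and SPARC. Of the 7 without overlap, 2 higher and 4 lower lay at or under it, and 1 lower above it. Read at the brightest probeset, the median log2 difference of the 10 genes was 0.18 (7 above 0, with SNAI1 under 3.5 counted, and 3 below), beside 0.07 over all 19775 genes (11699 above 0). With quantile normalization it was 0.06 (6 above 0) beside 0.02 over all genes, and with arrays centred on their median -0.0055 (5 above 0) beside -0.11. Centring lowers every difference by the same amount, so that 7571 of all 19775 genes lay above 0 under it, against 10360 with quantile normalization. The median log2 signal of the 10 genes had a pooled SD of 0.42 between arrays of a group. Over all probesets the median difference was 0.08, and -0.10 after centring.

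**Figure D1:**
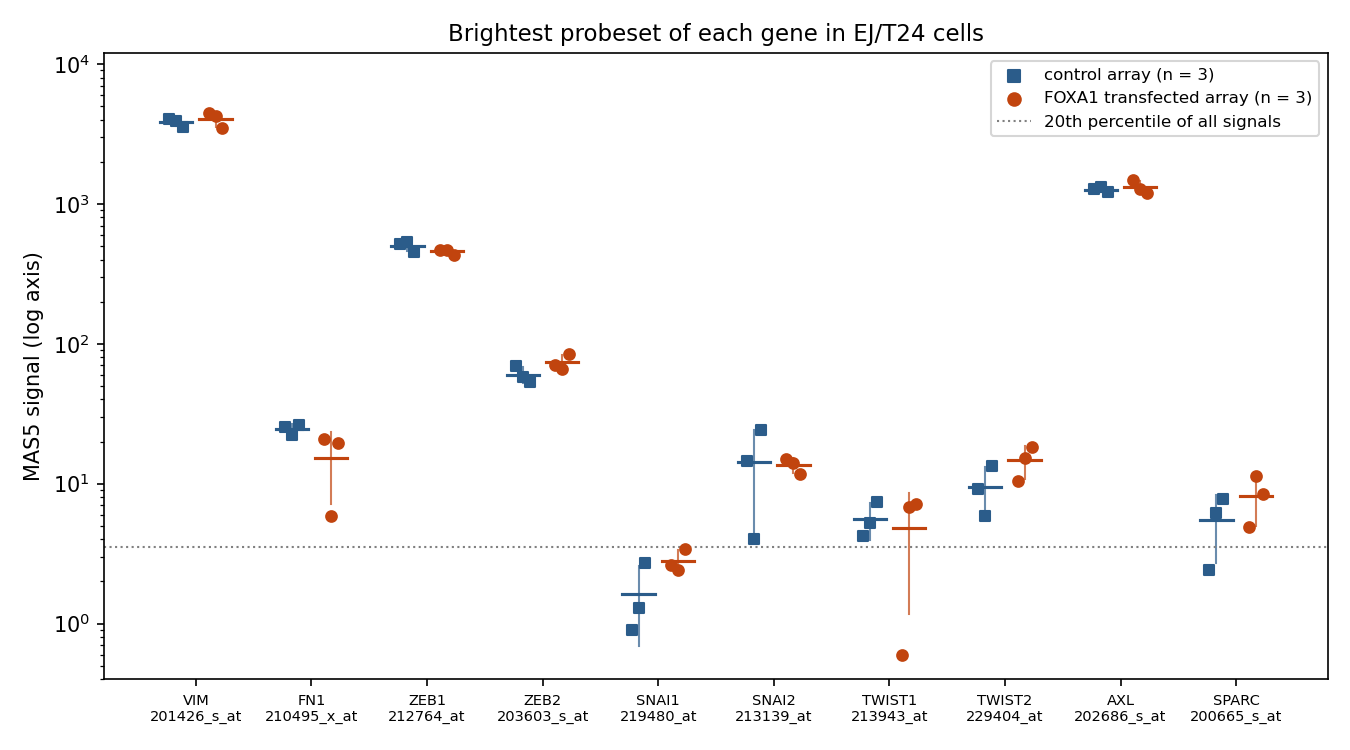
MAS5 signal on a log axis at the brightest probeset of each of the 10 genes, with blue squares for control arrays and orange circles for FOXA1 transfected arrays (n = 3 each), horizontal lines for means and vertical lines for SD. VIM, AXL and ZEB1 show tight points in both groups, and SNAI1 lies under the dotted line at 3.5 in all 6 arrays.

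VIM, the intermediate filament protein that marks mesenchymal cells, had signals of 4460, 4250 and 3494 in the FOXA1 transfected arrays and 4017, 3923 and 3567 in the control arrays at its main probeset (201426_s_at). FOXA1 transfected arrays 1 and 2 lay above every control array and array 3 below every one, so the control arrays sat inside the range of the transfected ones. The ratio of geometric means was 1.06 with a 95% interval of 0.909 to 1.23 (log2 difference 0.08, SE 0.10, limma adjusted p = 0.811). The second VIM probeset (1555938_x_at), whose name ending marks possible binding of other transcripts, gave 41.1, 20.5 and 32.1 against 40.1, 26.8 and 31.9. Neither probeset of VIM separated the groups, and the sign at the brighter one turned with quantile normalization (-0.035) and with median centring (-0.10).

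AXL, the receptor kinase activated by GAS6, had signals of 1474, 1270 and 1195 in FOXA1 transfected arrays and 1272, 1315 and 1213 in control arrays (202686_s_at). The values overlapped. Their ratio was 1.03 with a 95% interval of 0.902 to 1.18 (log2 difference 0.05, SE 0.09, limma adjusted p = 0.887). At the dimmer AXL probeset (202685_s_at) the signals were 66.2, 73 and 50.9 against 34.7, 53.1 and 35.9. Here 1 control array, replicate 2, lay above the lowest transfected array, and the log2 difference of 0.63 (SE 0.22, 95% interval 0.16 to 1.11) did not pass the test over all probesets (adjusted p = 0.299 from limma). The sign at the brighter AXL probeset turned with median centring (-0.14). The 2 probesets of AXL gave intervals of 0.902 to 1.18 and of 1.12 to 2.15 for the ratio.

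ZEB1, a zinc finger repressor of E-cadherin, is read by 4 probesets. At the brightest (212764_at) its signals were 472, 468 and 434 in FOXA1 transfected and 520, 534 and 452 in control arrays. Control replicate 3 lay under 2 of the transfected arrays, so that the groups overlapped, and the ratio was 0.914 with a 95% interval of 0.798 to 1.05 (log2 difference -0.13, adjusted p = 0.632 from limma). At 210875_s_at the signals were 104, 85.5 and 76.4 against 119, 118 and 117. All transfected arrays lay below the control arrays there, with a log2 difference of -0.43 (SE 0.14, 95% interval -0.72 to -0.13) that did not pass over all probesets (adjusted p = 0.268 from limma). The exact two-sided permutation test gave p = 0.1, the smallest that 3 arrays against 3 allow. The remaining probesets, 212758_s_at and 239952_at, had log2 differences of -0.13 and 0.02. ZEB1 was thus below control by sign at 3 of 4 probesets, and past the threshold at none.

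ZEB2, its paralog, had signals of 70.8, 65.8 and 84.8 in FOXA1 transfected and 69, 57.9 and 53.7 in control arrays at its brightest probeset (203603_s_at). Here 1 control array lay among the transfected ones, and the log2 difference was 0.29 (SE 0.16, 95% interval -0.06 to 0.65, adjusted p = 0.535 from limma). At 228333_at the difference was 0.10 (SE 0.26). At 235593_at it had the other sign, with 13.7, 8.4 and 12.9 against 19, 18.8 and 16.8 and no overlap (log2 difference -0.67, SE 0.37, limma adjusted p = 0.533). The last ZEB2 probesets, 233033_at and 233031_at, had signals of 0.5 to 6.6, mostly under 3.5, and their differences have no order. The brightest probesets of ZEB1 and ZEB2 differed in sign, and both intervals included 0.

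**Figure D2:**
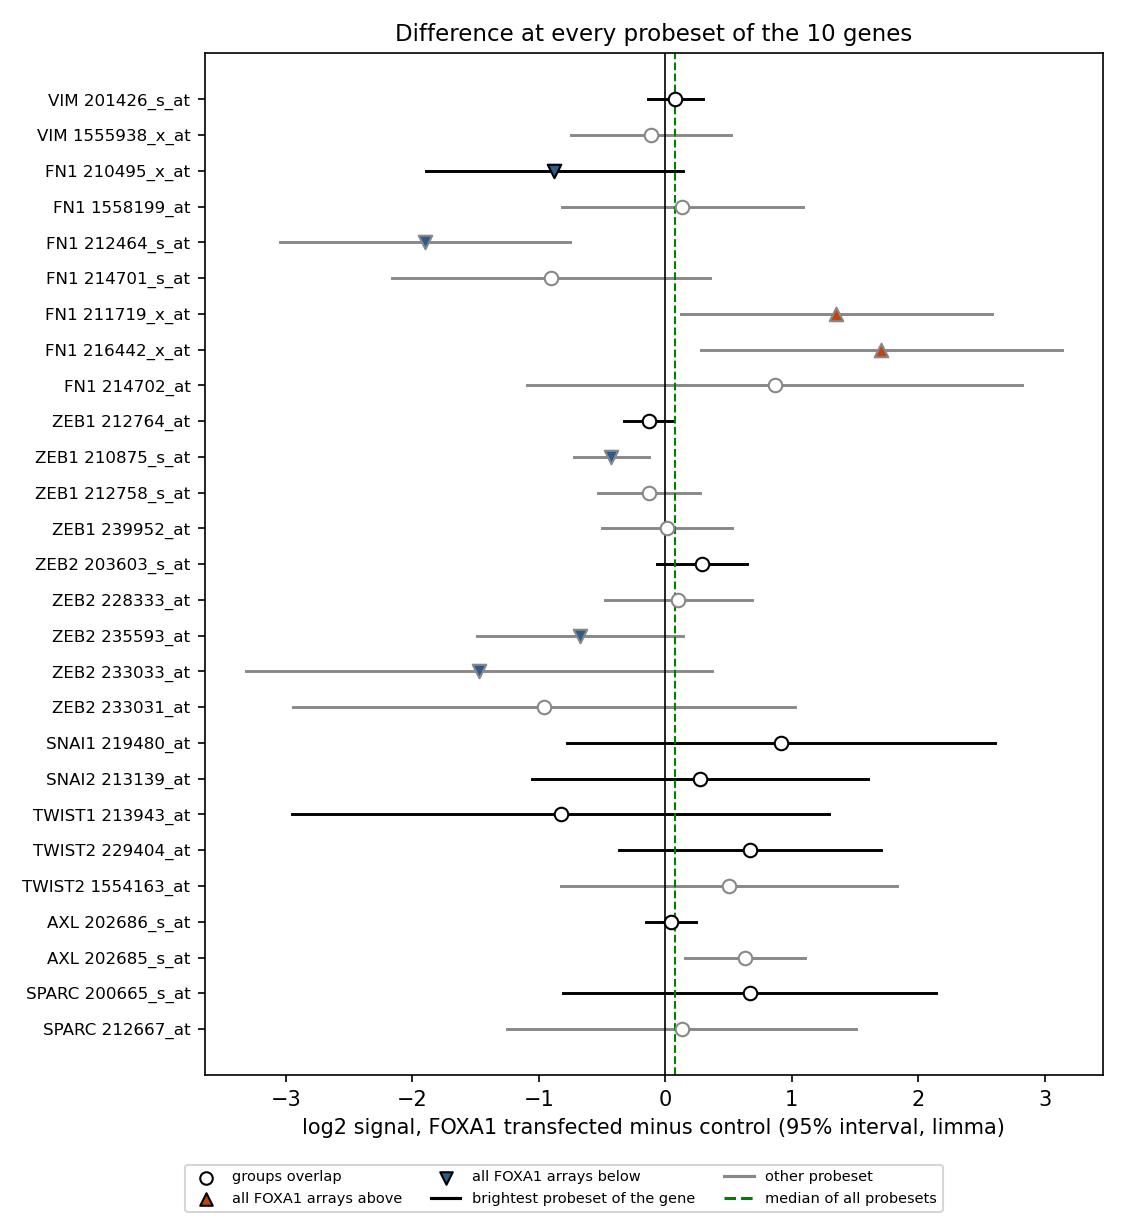
Log2 difference of MAS5 signal, FOXA1 transfected minus control, at all 27 probesets of the 10 genes, with 95% intervals from limma on the horizontal axis, black for the brightest probeset of a gene and grey for the others, and the median of all probesets as a dashed line at 0.08. Intervals are short at the brightest probesets of VIM, AXL and ZEB1 and wide at SNAI1, TWIST1 and FN1, and FN1 has triangles on both sides of 0.

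SNAI1, the factor known as Snail that represses E-cadherin, is read by 1 probeset (219480_at). Its signals were 2.6, 2.4 and 3.4 in FOXA1 transfected and 0.9, 1.3 and 2.7 in control arrays. All 6 lie under 3.5, so no difference was measurable. SNAI2, known as Slug, had 15, 14 and 11.7 against 14.4, 4 and 24.1 (log2 difference 0.27, 95% interval -1.05 to 1.60). The control arrays enclosed all transfected arrays.

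TWIST1, the helix-loop-helix factor of mesoderm and neural crest, had signals of 0.6, 6.8 and 7.1 in FOXA1 transfected and 4.2, 5.2 and 7.4 in control arrays. The log2 difference of -0.83 (SE 0.96) rested on FOXA1 transfected array 1 and was 0.35 without it, and 0.021 when signals under 3.5 were set to 3.5. TWIST2, its close relative, had 10.5, 15.2 and 18.3 against 9.1, 5.9 and 13.4 at the brighter probeset, with overlap (log2 difference 0.67, 95% interval -0.36 to 1.71), and a difference of 0.51 (SE 0.60) at the other. For the ratio, the 95% interval was 0.483 to 3.03 at SNAI2, 0.130 to 2.45 at TWIST1 and 0.778 to 3.27 at the brighter TWIST2 probeset, so ratios inside these ranges were not excluded.

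FN1, the matrix protein fibronectin, is read by 7 probesets, of which 4 had a log2 difference above 0 and 3 below. At the brightest (210495_x_at) the signals were 20.7, 5.9 and 19.5 in FOXA1 transfected and 25.3, 22.1 and 26.3 in control arrays, and the groups did not overlap (log2 difference -0.88, SE 0.46, adjusted p = 0.514 from limma). Without FOXA1 transfected array 2, the lowest, the difference was -0.29. At 212464_s_at they were 3, 6.4 and 10.4 against 18.9, 19.5 and 28.2, also without overlap. Its log2 difference of -1.90 (SE 0.52, 95% interval -3.05 to -0.76) had the lowest adjusted p of the 27 probesets (0.209 from limma). The opposite order held at 211719_x_at, with 10.1, 11.1 and 19.2 against 3.7, 8.3 and 4.2, and at 216442_x_at, with 16.2, 11.5 and 6.3 against 2.7, 2.4 and 5.2. Their log2 differences were 1.35 (SE 0.56) and 1.71 (SE 0.65), again without overlap, and 2 of the 6 signals at the second lay under 3.5. Probesets of the same gene thus separated the groups in opposite directions, 2 each way, at signals between 2.4 and 28.2, and the remaining 3 overlapped. Of the 4 that separated, 3 are of the _x_at kind.

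**Figure D3:**
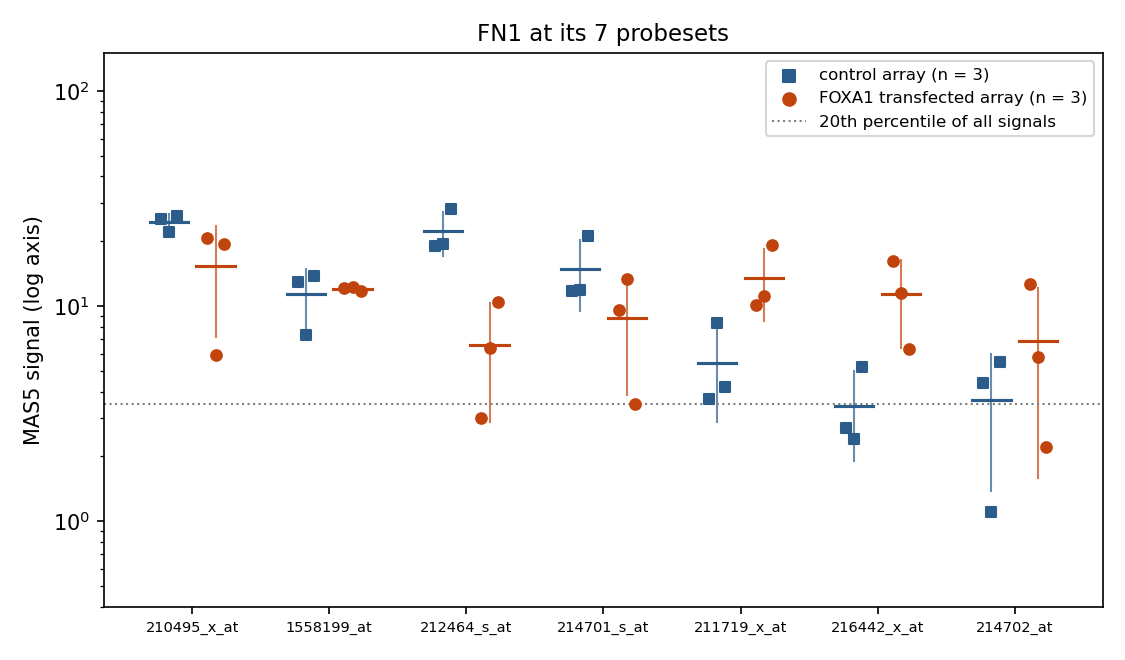
MAS5 signal on a log axis at the 7 probesets of FN1, ordered by mean log2 signal, with blue squares for control and orange circles for FOXA1 transfected arrays (n = 3 each), lines for means and bars for SD. Transfected arrays lie below control at 210495_x_at and 212464_s_at and above control at 211719_x_at and 216442_x_at, and no signal exceeds 28.2.

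SPARC, a secreted protein that binds collagen, had signals of 4.9, 11.3 and 8.4 in FOXA1 transfected and 2.4, 6.2 and 7.8 in control arrays (200665_s_at), with overlap and a log2 difference of 0.67 (95% interval -0.81 to 2.14). At 212667_at they were 8.1, 5.5 and 3.7 against 5, 4.2 and 6. With FN1, SPARC was thus a matrix gene of low signal in both groups. No array of either group reached 30 at any FN1 or SPARC probeset.

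Other genes of the transition were read in lists, each gene at its brightest probeset. Of 30 measured mesenchymal genes besides the 10, the median log2 difference was 0.09 (18 above 0, 12 below) beside 0.07 over all genes, and none passed over all probesets. With quantile normalization 15 of the 30 lay above 0, and after median centring 10. CALD1, which encodes the actin binding protein caldesmon, had signals of 970, 940 and 906 in FOXA1 transfected and 1262, 1291 and 1253 in control arrays. They did not overlap, and the log2 difference was -0.43 (SE 0.07, adjusted p = 0.0749 from limma). With the dimmer probesets of the array left out, the adjusted p from limma was 0.0290, and under no other alternative did it pass. Other CALD1 probesets of lower signal ranged from -1.26 to 0.37. CDH2, the N-cadherin of mesenchymal cells, had 397, 349 and 339 against 518, 513 and 453 (log2 difference -0.45, SE 0.09, adjusted p = 0.118 from limma), and -0.69 (SE 0.22) at its other probeset, both without overlap. TAGLN, an actin binding protein of smooth muscle, had 36.8, 29.6 and 24.9 against 15.9, 10.7 and 15.5 (log2 difference 1.12, SE 0.31, adjusted p = 0.210 from limma), and differences of -0.35 and -0.23 at dimmer probesets.

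Of 28 epithelial genes, many of them repressed by these factors, the median log2 difference was 0.24 (22 above 0, 6 below), and none passed. Over all 19775 genes the median was 0.07, with 11699 above 0. Over the 20 markers of other cells, read below, it was 0.23. Many of the 28 were dim, with a median signal of 15.4 in FOXA1 transfected and 11.7 in control arrays. With quantile normalization 17 of the 28 lay above 0 (median 0.09), and after median centring 16 did (median 0.06). MARVELD2, a protein of tricellular junctions, had 194, 231 and 232 in FOXA1 transfected and 186, 166 and 180 in control arrays (log2 difference 0.30, SE 0.11, adjusted p = 0.312 from limma), without overlap, and a difference of -0.18 (SE 0.32) with overlap at its other probeset. DSP, the desmosomal desmoplakin, had a log2 difference of -0.27 with overlap, and JUP, plakoglobin, one of 0.26 without. CDH1, the E-cadherin gene that the ZEB, SNAI and TWIST factors silence, was named after its values were seen. It had 5.3, 1 and 2.9 against 0.6, 2 and 1.4 at its brightest probeset, mostly under 3.5. KRT18, a keratin of simple epithelium named in the same way, had 2359, 2530 and 2544 against 2296, 2080 and 2405.

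Around AXL, PROS1, protein S, which binds the related receptors TYRO3 and MERTK, had signals of 409, 431 and 377 in FOXA1 transfected and 516, 597 and 486 in control arrays. These did not overlap, and they differed by -0.39 on the log2 scale (SE 0.10, adjusted p = 0.176 from limma). MERTK had a log2 difference of 0.23 and TYRO3 one of 0.27, both without overlap. At other probesets MERTK overlapped (0.22 and 0.81) and TYRO3 did not (0.49). GAS6, the AXL ligand and the last of the list, was named after its values were seen. It had a log2 difference of -0.13 with overlap, and -0.45 (SE 0.23) at its other probeset without. None of these 4 genes passed over all probesets.

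Of 18 genes that act upstream of the transition factors, the median was 0.11 (11 above 0, 7 below), beside 0.07 over all genes. None passed the threshold, and 12 lay above 0 with quantile normalization and 8 after median centring. RELA, the p65 subunit of NF-kappaB, had 264, 267 and 296 against 188, 202 and 200 (log2 difference 0.49, SE 0.09, adjusted p = 0.101 from limma), without overlap there and at its other probeset (0.45, SE 0.19). It had an adjusted p of 0.0496 from limma when the dimmer probesets were left out, and passed under no other alternative. STAT3 and the TGF-beta receptor TGFBR2 had log2 differences of 0.27 and 0.26, both without overlap. Of 20 partners and regulators of turnover, 9 lay above 0 and 11 below (median -0.02), and 10 lay above 0 with quantile normalization and 2 after median centring. PRKD1, a kinase that phosphorylates SNAI1, had 224, 200 and 191 against 292, 315 and 258 (log2 difference -0.49, SE 0.11, adjusted p = 0.133 from limma), without overlap. HDAC1, a deacetylase of repressor complexes, had a difference of 0.21 (SE 0.07) without overlap, and CSNK2B one of 0.15 with overlap.

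**Figure D4:**
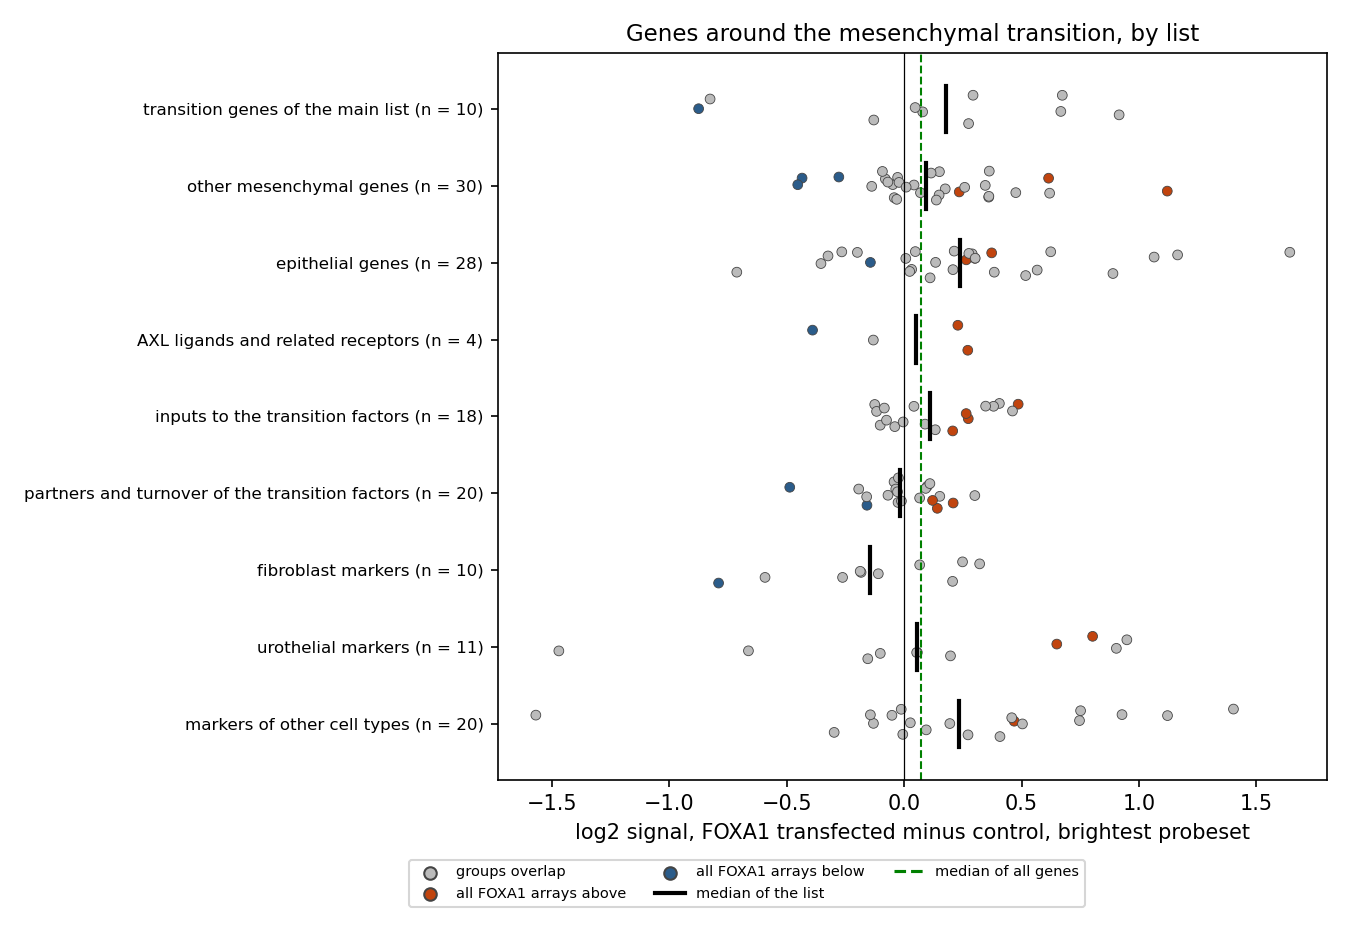
Log2 difference of MAS5 signal, FOXA1 transfected minus control, for the 10 transition genes and 8 further lists, each gene at its brightest probeset, with points coloured where the arrays of the groups do not overlap, black bars for list medians and a dashed line for the median of all genes at 0.07. List medians lie between -0.15 and 0.24, and no point passed limma over all probesets.

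Markers of other cells were read in the same arrays. Of 20 markers of leukocytes, endothelium, muscle, nerve and other specialised cells, the median log2 difference was 0.23 (13 above 0, 7 below, and 11 and 9 under either other scaling), with a summed signal of 206 to 266 in FOXA1 transfected and 183 to 215 in control arrays. PECAM1, an endothelial adhesion protein, had a log2 difference of 0.47 without overlap at its brightest probeset, and of -1.57 to 0.62 with overlap at its 4 others, whereas CRYAA of the lens (1.4) and DES of muscle (-1.57, and 2.003 at its other probeset) overlapped. CD14 and INS, named after their values were seen, lay under 3.5 in all 6 arrays. Of 10 fibroblast markers, the median was -0.15 (4 above 0, 6 below). It was -0.23 (2 above 0, 8 below) with quantile normalization, beside 0.02 over all genes. After median centring it was -0.33 (3 above 0, 7 below), beside -0.11. The summed signal of the 10 was 187 to 284 in FOXA1 transfected and 230 to 264 in control arrays. FBLN1 and FAP overlapped (-0.26 and -0.59), and PDGFRA did not (-0.79). The other probesets of FBLN1 (-0.74 to 0.38) and PDGFRA (-1.54 to 0.33) overlapped and had both signs. None of these markers passed over all probesets, and their part in the differences of the transition genes was not tested.

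The cells were also set against markers of urothelium, 11 measured with FOXA1 among them. At their brightest probesets 7 lay above 0 and 4 below, against 4 and 7 with quantile normalization and 5 and 6 after median centring. Their summed signal, with FOXA1 counted, was higher in every FOXA1 transfected array than in any control array. Without FOXA1, an alternative chosen after seeing the data, the other 10 summed to 94.1, 108.3 and 112 in FOXA1 transfected arrays. In control arrays they summed to 95.5, 93.6 and 79.3, and the groups overlapped at FOXA1 transfected array 1. UPK1B, a uroplakin, had 30.4, 20.1 and 25.5 against 18.3, 16.7 and 9.6, without overlap (log2 difference 0.80, SE 0.35, adjusted p = 0.420 from limma). At its other probeset the difference was 2.64 (SE 0.62, adjusted p = 0.161 from limma), also without overlap. There 2 control signals, 1.9 and 3, lay under 3.5, so the size of that difference is uncertain. GATA3, a luminal factor, had a difference of 0.95 with overlap. UPK3A and KRT13, which mark differentiated urothelium and were named after their values were seen, lay under 3.5 in all 6 arrays.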

How the data were processed

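Whole genome mRNA expression was read on 6 HG-U133 Plus 2.0 arrays. In the deposited table there is 1 signal intensity for each probeset and array, on a linear scale, credited to MAS5 in the submitters' processing notes. The methods also name RMA and SAM. Neither was run here. Detection calls were not used here. Groups came from the sample titles. The 25 zeros became 0.1, and signals were converted to log2. Array control probesets (62) were left out. The comparison used R 4.3.3 and limma 3.58.1 (lmFit, then eBayes with its mean signal trend). Two-sided p-values were adjusted by Benjamini-Hochberg across the 54613 probesets, the threshold was 0.05, and 95% intervals came from the same fit. The number of arrays limits the precision. Symbols came from the platform annotation, in which 41091 probesets have 1 symbol, 1801 several and 11721 none. Of the 162 genes in the lists, 11 had no such probeset. Outside the main 10, genes named were the 3 with the smallest p in each list, and others are said to be named after their values were seen. The brightest probeset had the highest mean log2 signal. Members and lists were chosen with earlier results of these data known. Alternatives were limma without the trend, quantile normalization, median centring, a floor at the 20th percentile, leaving out dim probesets (mean log2 signal at or under the median, a signal of 13.5), leaving out _x_at probesets, the median over a gene's probesets, a replicate block and each array left out. Figures were drawn with matplotlib 3.10.9, and sequences are from RefSeq.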

Additional observations from a re-analysis of the deposited data

How the results depend on the processing

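No probeset of the 10 genes passed the threshold in limma under any alternative run, on all 6 arrays or without 1 array. Over all probesets, 32 passed as reported, 1 without the intensity trend, 7 with arrays centred on their median, 179 with dim probesets left out (12 of the 27 remained) and 85 with the replicate block. Without 1 array, 4 to 76 passed (10, 6 and 76 without FOXA1 transfected replicate 1, 2 and 3, and 10, 5 and 4 without control replicate 1, 2 and 3). In the main fit the replicate numbers were not taken to pair the arrays. Over all probesets, dim ones included, deviations of same-numbered arrays correlated at 0.0022, 0.038 and 0.011. FOXA1 transfected array 1 correlated best with control array 3. The median SE was 0.766 in the dimmer and 0.164 in the brighter probesets. These correlations therefore weigh dim probesets heavily and cannot exclude pairing. With dim probesets left out, 1 other mesenchymal gene (CALD1) and 1 gene upstream of the factors (RELA) passed, against 0 of each as reported. Under that setting 179 of 27306 probesets passed, and under every other alternative run on these 2 lists 0 of their genes did. Small differences turned sign with the scaling. With quantile normalization the log2 difference was -0.0355 at VIM 201426_s_at, -0.0696 at FN1 1558199_at, -0.0983 at ZEB1 239952_at, -0.0148 at ZEB2 228333_at and -0.0874 at SPARC 212667_at. With median centring these were -0.103, -0.0454, -0.166, -0.0779 and -0.0530, and AXL 202686_s_at was at -0.135. With signals under 3.5 set to 3.5, TWIST1 was at 0.0214, and SNAI1 gave no difference. Leaving out 1 array turned the sign within -0.341 to 0.161 at VIM 1555938_x_at, -0.153 to 0.306 at FN1 1558199_at, -0.347 to 0.0643 at ZEB1 212758_s_at, -0.0795 to 0.155 at ZEB1 239952_at, -0.0864 to 0.317 at ZEB2 228333_at, -0.465 to 0.830 at SNAI2, -1.43 to 0.351 at TWIST1, -0.0392 to 0.112 at AXL 202686_s_at and -0.152 to 0.413 at SPARC 212667_at. The cause was not tested. Low signal limits the dim members most. The median over a gene's probesets in place of the brightest was run for the 10 genes and not for the other lists.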
